A study of Mus musculus with 3 samples.

Results

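The replication-dependent histone genes of the mouse encode the linker histone H1 and the core histones H2A, H2B, H3 and H4. They were taken as every Ensembl row whose symbol starts with Hist1h, Hist2h, Hist3h or Hist4h, which gave 64 genes of 20649 Ensembl rows and 57561 rows in all. There were 6 genes for H1, 17 for H2A, 18 for H2B, 10 for H3 and 13 for H4, of which 62 are annotated as protein coding and 2, Hist1h2al and Hist3h2bb-ps, as pseudogenes. RNA was measured in MDSCs (myeloid-derived suppressor cells), which are immature, belong to the myeloid lineage and are known to dampen T cell responses, grown for 4 days from femoral marrow with the cytokines GM-CSF and IL6. The 3 libraries, all labelled with the strain C57BL/6, came from wild type (WT), lnc57Rik-/- (lnc57Rik KO) and lncGM1082-/- (lncGM1082 KO) mice, so both knockouts lack a long noncoding RNA. There was 1 library per genotype, so every difference below compares single libraries without replicates, and no p-value was computed. Age, the alleles behind the knockouts and the number of mice in a library are not given in the labels.

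A dividing cell must package its newly copied DNA, and these genes supply the histones for that while S phase lasts. Their transcripts carry no introns in the usual case and are cut after a conserved stem-loop in place of receiving a poly(A) tail, and stem-loop binding protein (SLBP) holds that hairpin through processing, translation and decay. The genes lie in clusters of many copies, and the variants made outside S phase, such as H2A.Z and H3.3, come from genes outside these clusters whose transcripts carry poly(A) tails.

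The stem-loop was searched in the GENCODE transcripts of all 64 genes as 16 bases after the stop codon that open with GG, close with CC, pair over a stem of 6 bases and hold a loop of 4 bases starting with TT. It was found in 41 genes, 21 to 54 bases after the stop codon with a median of 31. The other 23 annotated transcripts held no match, which says only that these letters are not in the annotated transcript. The 41 matches fell into 6 forms, shown here with 7 bases on each side because they are the site that sets these transcripts apart. Capitals mark the stem and loop, and the coordinates (GRCm38) are those of the capitals.
Hist1h3b, chr13:23752820-23752835, plus strand: acccaaaGGCTCTTTTCAGAGCCacccaca
Hist1h2bb, chr13:23747203-23747218, plus strand: acccaaaGGCTCTTTTAAGAGCCacccaca
Hist2h2ac, chr3:96220418-96220433, minus strand: ccaaaaaGGCTCTTTTTAGAGCCaccaaat
Hist1h4c, chr13:23698089-23698104, minus strand: aacaaaaGGCCCTTTTCAGGGCCacccaca
Hist1h4i, chr13:22040966-22040981, minus strand: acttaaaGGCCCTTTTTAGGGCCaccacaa
Hist1h4j, chr13:21735437-21735452, plus strand: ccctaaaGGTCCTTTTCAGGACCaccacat
The form in Hist1h3b was held by 23 genes of types H1, H2A, H2B and H3. The form in Hist1h2bb was held by 6 genes of types H1, H2B and H3, and the form in Hist2h2ac by that gene alone. All 11 H4 genes with a match carried one of the other 3 forms, which differ from the rest in the stem. The form in Hist1h4c was held by 7 H4 genes, that in Hist1h4i by Hist1h4i and Hist2h4, and that in Hist1h4j by Hist1h4j and Hist1h4b.

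Upstream sequences of 250 bases were available from RefSeq (GRCm38.p6) for 57 of the 64 genes and were searched on both strands for 5 short motifs. The CCAAT box (CCAAT) was in 47 of the 57, or 82.5%, against 33.8% of all 32851 promoters of the same length. It was in every H1, H2A and H2B promoter matched and in 7 of 8 for H3, but in 3 of 12 for H4. The letters GGTCCG, found in an element known from H4 promoters, were in 9 of 12 H4 promoters, in 1 of 15 for H2B and in 1 of 8 for H3, against 6.72% of all promoters. The upstream bases of Hist1h4h, counted as without a match, end in GGTCC, so its last letter lay outside the search. The letters AAACACA, known from H1 promoters, were in 5 of 6 for H1, in 2 of 16 for H2A and in 2 of 15 for H2B, against 6.25% of all promoters. The octamer ATTTGCAT was in 7 of 16 H2A and 5 of 15 H2B promoters and in 0 of the other types, against 1.60% of all promoters. The TATA box letters TATAAA were in 29 of the 57, or 50.9%, against 12.4% of all. Matches of different motifs overlapped in 1 of the 57, a CCAAT box and GGTCCG in Hist1h3i. A match is a description of the sequence and not a bound site. The 150 bases before the RefSeq start are shown for 1 well expressed gene per type, with motifs of either strand in capitals. ATTGG is thus a CCAAT box read from the other strand. For H1 and H2B the gene shown is not the highest of its type. In the same 150 bases Hist1h1c, the highest of H1, holds no TATAAA, and Hist1h2bn, the highest of H2B, holds the CCAAT box alone.
Hist1h1e, chr13:23622559-23622708, minus strand: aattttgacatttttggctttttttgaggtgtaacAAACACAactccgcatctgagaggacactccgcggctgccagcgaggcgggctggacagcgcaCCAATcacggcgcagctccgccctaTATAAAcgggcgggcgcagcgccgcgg
Hist1h2ak, chr13:21753913-21754062, minus strand: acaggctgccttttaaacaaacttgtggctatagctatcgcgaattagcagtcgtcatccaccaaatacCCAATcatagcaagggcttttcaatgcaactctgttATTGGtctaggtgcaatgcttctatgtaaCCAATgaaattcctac
Hist1h2bb, chr13:23746584-23746733, plus strand: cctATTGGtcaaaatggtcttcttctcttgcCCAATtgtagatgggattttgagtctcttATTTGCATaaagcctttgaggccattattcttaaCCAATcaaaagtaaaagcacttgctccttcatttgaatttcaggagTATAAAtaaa
Hist1h3c, chr13:23745522-23745671, minus strand: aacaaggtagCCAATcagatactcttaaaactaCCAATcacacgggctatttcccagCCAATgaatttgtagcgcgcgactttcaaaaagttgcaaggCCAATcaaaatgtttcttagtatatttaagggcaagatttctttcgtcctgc
Hist1h4k, chr13:21750554-21750703, minus strand: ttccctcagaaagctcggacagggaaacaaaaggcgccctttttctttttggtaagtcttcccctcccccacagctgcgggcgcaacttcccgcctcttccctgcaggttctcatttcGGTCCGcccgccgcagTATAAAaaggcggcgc
The H2A and H2B genes mostly lie head to head. Of 14 neighbouring pairs on opposite strands with starts pointing apart and under 1000 bases between them, 13 paired an H2A with an H2B gene, with gaps of 172 to 305 bases and a median of 250. The Hist1h2ak bases above lie in the space between it and Hist1h2bn.

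Levels are given in FPKM, a count of fragments divided by transcript length and by the size of the library, as deposited by the authors. Libraries held 18485072 fragments in WT, 17593436 in lnc57Rik KO and 18280370 in lncGM1082 KO, recovered from the steps between low values, and 1 fragment in a gene of 1000 exon bases was worth 0.0541, 0.0568 and 0.0547 FPKM in that order. RefSeq gives Gm1082 as a synonym of Arhgap33os, whose row held 0.0204, 0 and 0.0620 FPKM in the same order, too little to check the label, and 0 symbols in the table end in 57Rik. MDSC cultures are myeloid, and 11 markers of mature neutrophils summed to 10786 FPKM in WT, 10210.4 FPKM in lnc57Rik KO and 6886 FPKM in lncGM1082 KO. All 3 libraries thus carried RNA of myeloid genes at a high level. The sum was led by S100a9, with 4521, 4509 and 2833 FPKM in WT, lnc57Rik KO and lncGM1082 KO, and does not speak for each marker. In lnc57Rik KO 2 of the 11 lay above WT and 9 below. Ly6g, for example, had 73.4 FPKM in WT, 21.1 FPKM in lnc57Rik KO and 33.9 FPKM in lncGM1082 KO. Marker genes of other cell types also differed between the libraries, and their values stand beside the related gene lists at the end of the account.

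The first comparison asked how histone mRNA differed in cells without lnc57Rik. Histone genes of all 5 types were higher in lnc57Rik KO than in WT. The 64 genes together summed to 2579, 7108 and 3287 FPKM in WT, lnc57Rik KO and lncGM1082 KO, which was 0.778%, 2.18% and 1.01% of the FPKM of the whole table. The lnc57Rik KO library stood highest, at 2.76 times WT and 2.16 times lncGM1082 KO, and lncGM1082 KO stood 1.27 times as high as WT. In fragments, which weigh long genes more, the ratio of lnc57Rik KO to WT was 2.54 (2.51 to 2.58), where brackets give here and throughout an exact 95% interval (Clopper-Pearson). Such intervals cover counting error alone, not differences between mice, cultures or library preparations, and fragments shared between copies are not independent. In bulk RNA, a larger share of cycling cells and more histone RNA per cell cannot be told apart.

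**Figure D1:**
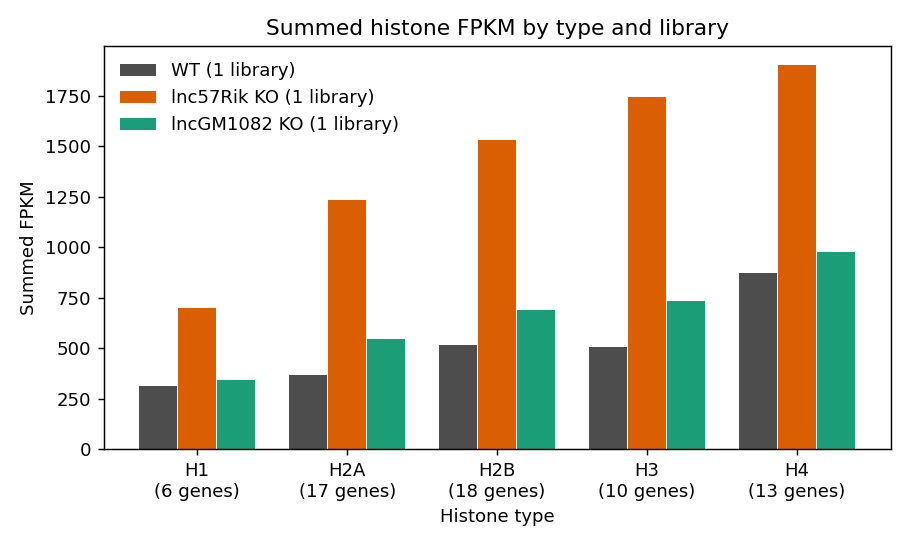
Summed FPKM of the genes of each histone type (vertical axis, from 0) in the 3 libraries, 1 bar per library. In every type the lnc57Rik KO bar is the highest, and lncGM1082 KO lies between it and WT, close to WT for H1 (341 against 314 FPKM) and H4 (977 against 874 FPKM).

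Nearly identical copies share reads, so sums per type come before single genes. H3 summed to 507, 1743 and 732 FPKM in WT, lnc57Rik KO and lncGM1082 KO, H2A to 369, 1233 and 547 FPKM, and H2B to 515, 1531 and 691 FPKM. H4 summed to 874, 1901 and 977 FPKM, and H1 to 314, 699 and 341 FPKM, in the same order. The types fell into a higher and a lower set in lnc57Rik KO against WT, with FPKM ratios of 3.44 for H3, 3.34 for H2A and 2.97 for H2B, and of 2.23 for H1 and 2.17 for H4. From fragments, the ratios were 3.37 (3.24 to 3.50) for H2A, 3.30 (3.21 to 3.39) for H3, 2.79 (2.71 to 2.87) for H2B, 2.10 (2.05 to 2.16) for H4 and 1.97 (1.92 to 2.02) for H1. The intervals of H2A and H3 overlapped each other, and those of the other neighbours in this order did not. The shares of the types in summed histone FPKM thus differed between these single libraries, by little for H2A between the 2 knockouts. H4 took 33.9% of histone FPKM in WT, 26.7% in lnc57Rik KO and 29.7% in lncGM1082 KO, while H3 took 19.6%, 24.5% and 22.3% and H2A took 14.3%, 17.3% and 16.7%. The size of such a share depends on the annotated lengths of the genes.

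Of the 64 genes, 54 had a mean of at least 1 FPKM over the 3 libraries and were compared one by one. A gene was called higher or lower when the log2 ratio of FPKM + 1 was at least 1 in absolute size, a rule of size and not a test. In lnc57Rik KO against WT, 45 of the 54 were higher, where 3.79% of the 12041 Ensembl rows with the same mean were, and 0 were lower, where 1.4% were. The log2 ratio was above 0 in all 54, from 0.20 to 2.29 with a median of 1.57, beside a median of 0.10 over all Ensembl rows compared. Higher by the rule were 2 of 4 genes of H1, 13 of 14 of H2A, 12 of 14 of H2B, 9 of 10 of H3 and 9 of 12 of H4. The members nearest the rule were Hist1h4m at 1.01 and Hist1h2ao at 1.02 inside it, and Hist1h2bc at 0.97 and Hist1h1e at 0.78 outside it. The counting interval of the ratio lay above 1 for 52 of the 54 and held 1 for Hist2h2ab and Hist2h3c2.

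**Figure D2:**
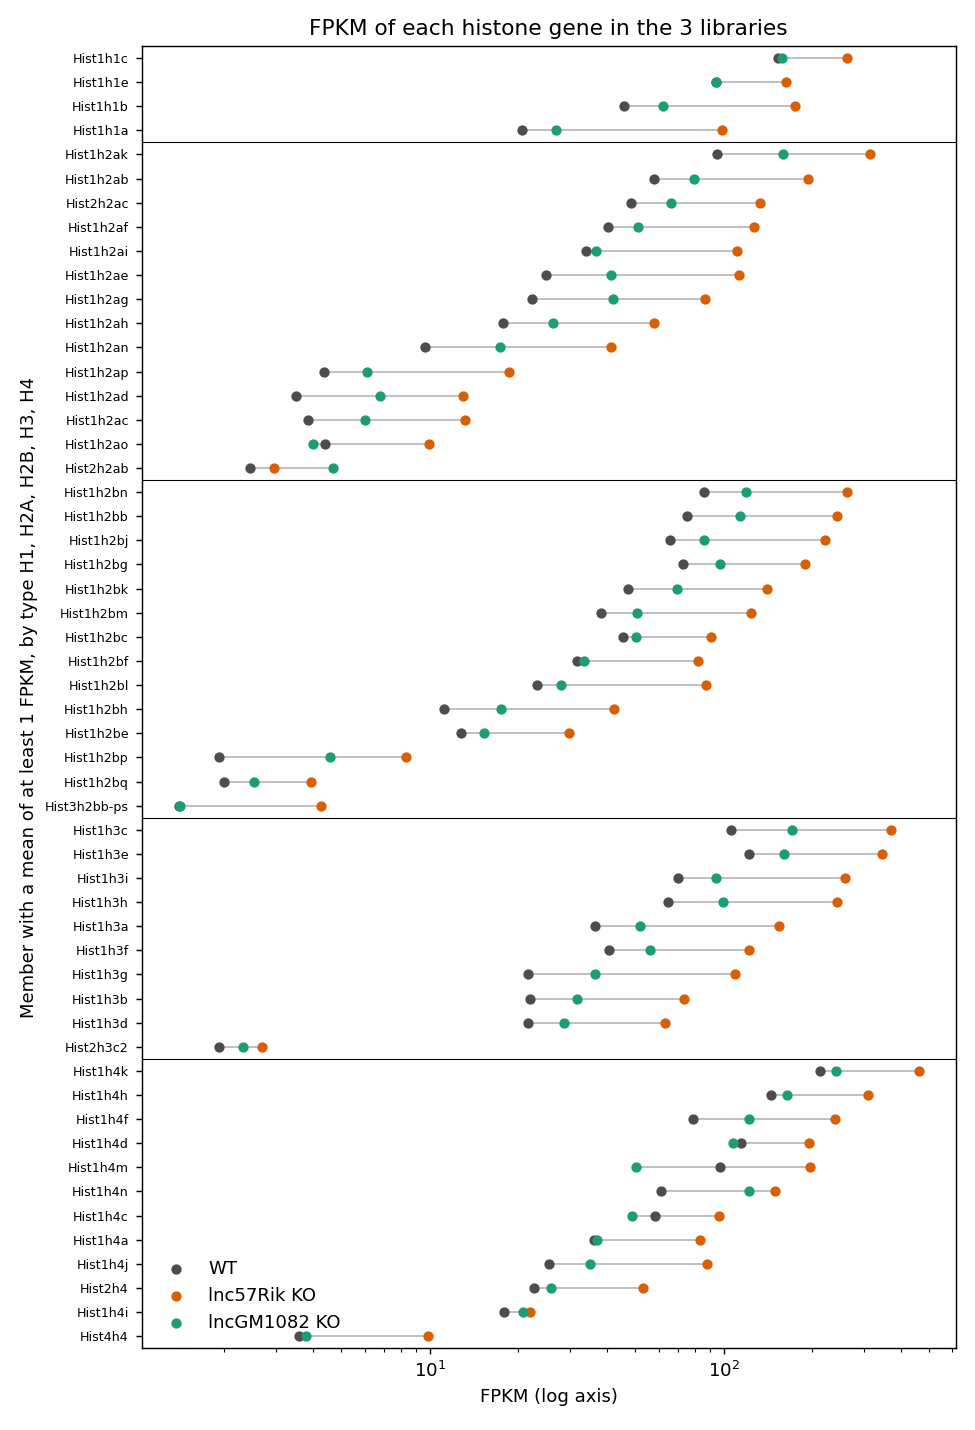
FPKM (horizontal log axis) of the 54 histone genes compared, ordered by type and then by mean level, 1 point per library and gene, with a grey line from the lowest to the highest library. The lnc57Rik KO point lies farthest right for every gene except Hist2h2ab, which is highest in lncGM1082 KO at 4.68 FPKM.

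The H1 genes split into a pair that differed widely and a pair that differed less. Hist1h1c, encoding the linker histone H1.2, had 153 FPKM in WT, 262 FPKM in lnc57Rik KO and 158 FPKM in lncGM1082 KO. Hist1h1e, encoding H1.4, had 94.3 FPKM in WT, 163 FPKM in lnc57Rik KO and 93.9 FPKM in lncGM1082 KO. Both were highest in lnc57Rik KO, with ratios to WT of 1.71 (1.65 to 1.78) and 1.72 (1.65 to 1.80), and lncGM1082 KO and WT were within counting error of each other. Hist1h1b, encoding H1.5, had 45.8 FPKM in WT, 175 FPKM in lnc57Rik KO and 61.9 FPKM in lncGM1082 KO. Hist1h1a, encoding H1.1, had 20.7 FPKM in WT, 98.7 FPKM in lnc57Rik KO and 26.9 FPKM in lncGM1082 KO. Their ratios of lnc57Rik KO to WT were 3.83 (3.50 to 4.19) and 4.78 (4.2 to 5.45), above the intervals of the other pair, and in lncGM1082 KO the ratios to WT were 1.35 (1.22 to 1.5) and 1.30 (1.11 to 1.52). This pairing was made after the values were seen. Summed as pairs, Hist1h1a and Hist1h1b went from 66.5 FPKM in WT to 274 FPKM in lnc57Rik KO, while Hist1h1c and Hist1h1e went from 247 to 424 FPKM. Hist1h1a and Hist1h1b share no stretch of 50 bases with any other member, unlike all core histone genes except Hist2h2be and Hist4h4. Hist1h1e overlaps Hist1h2be over 496 bases of the same strand. The remaining H1 genes, Hist1h1d and the testis gene Hist1h1t, stayed at a mean of at most 0.248 FPKM, with at most 29 fragments in a library.

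Among H2A genes the values, here and below in the order WT, lnc57Rik KO and lncGM1082 KO, were led by Hist1h2ak with 95, 314 and 159 FPKM. Hist1h2ab had 58.1, 194 and 79.2 FPKM. Hist2h2ac, of the small Hist2 cluster on chromosome 3, had 48.4, 133 and 66.1 FPKM. In each of them lnc57Rik KO was highest and lncGM1082 KO stood between it and WT. Hist1h2af had 40.4, 126 and 51.1 FPKM, Hist1h2ai 33.9, 111 and 36.9 FPKM and Hist1h2ae 24.8, 112 and 41.5 FPKM. Hist1h2ag had 22.3, 86.0 and 42.1 FPKM, Hist1h2ah 17.8, 57.8 and 26.2 FPKM and Hist1h2an 9.64, 41.4 and 17.3 FPKM. The same order of libraries held for all 6. Hist1h2ae had the highest ratio of lnc57Rik KO to WT among H2A genes compared, 4.52 (4.01 to 5.12), followed by Hist1h2an at 4.29 (3.29 to 5.66) and Hist1h2ap at 4.26 (2.98 to 6.21). Lower levels were found for Hist1h2ad with 3.50, 12.9 and 6.79 FPKM, Hist1h2ac with 3.86, 13.1 and 6.04 FPKM, Hist1h2ap with 4.38, 18.6 and 6.13 FPKM and Hist1h2ao with 4.4, 9.95 and 3.99 FPKM. Hist2h2ab stood apart with 2.44, 2.94 and 4.68 FPKM, a ratio of lnc57Rik KO to WT of 1.21 (0.635 to 2.32) that is within counting error of 1. It rests on 20 fragments in WT. Hist1h2aa, Hist1h2al and Hist3h2a were below a mean of 1 FPKM, at most 0.334 (Hist3h2a), which lies within Trim17 on the same strand.

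All 14 H2B genes compared were likewise above WT in lnc57Rik KO. Hist1h2bn had 85.5, 263 and 119 FPKM. Hist1h2bb had 75.0, 242 and 114 FPKM, and Hist1h2bj had 65.8, 222 and 85.9 FPKM. Hist1h2bg had 72.5, 189 and 97.2 FPKM, and Hist1h2bk had 47.3, 141 and 69.5 FPKM. In all 5 genes lnc57Rik KO was highest and WT lowest. Hist1h2bm had 38.2, 123 and 50.7 FPKM, Hist1h2bc 45.5, 90.2 and 50.3 FPKM and Hist1h2bf 31.6, 81.5 and 33.3 FPKM. Hist1h2bl had 23.1, 87.0 and 27.9 FPKM, Hist1h2bh 11.2, 42.4 and 17.5 FPKM and Hist1h2be 12.8, 29.6 and 15.3 FPKM. The order of libraries was again the same, with a narrower spread in Hist1h2bc, whose ratio of lnc57Rik KO to WT was 1.98 (1.83 to 2.14), than in Hist1h2bh at 3.79 (3.36 to 4.28). Low levels were found for Hist1h2bp with 1.92, 8.29 and 4.57 FPKM, Hist1h2bq with 1.99, 3.95 and 2.52 FPKM and the pseudogene Hist3h2bb-ps with 1.40, 4.28 and 1.41 FPKM. Hist1h2bp had the highest ratio among H2B genes compared in both knockouts, 4.33 (2.77 to 7.0) in lnc57Rik KO and 2.39 (1.47 to 3.98) in lncGM1082 KO, from 25 fragments in WT. Another 4 H2B genes were below a mean of 1 FPKM. Hist2h2be, the highest of these, had 0.95, 0.933 and 1.09 FPKM, and its ratio of lnc57Rik KO to WT was 0.982 (0.633 to 1.52). Among the head to head pairs of H2A and H2B genes, 9 had both members compared, and in 7 both were higher in lnc57Rik KO by the rule of size. Singly, 13 of 14 H2A and 12 of 14 H2B genes compared were higher, so that count does not set the pairs apart. Hist1h2ak and Hist1h2bn, which face each other across the bases printed above, had ratios of 3.30 and 3.08, while Hist1h2ae and Hist1h2bg had 4.52 and 2.61.

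All 10 H3 genes reached a mean of 1 FPKM. Hist1h3c had 106, 371 and 171 FPKM, and Hist1h3e had 122, 345 and 161 FPKM. Hist1h3i had 70.0, 259 and 94.2 FPKM, and Hist1h3h had 64.6, 244 and 99.3 FPKM. The lnc57Rik KO library was highest in each. Hist1h3a had 36.5, 154 and 51.7 FPKM, Hist1h3f 40.8, 122 and 55.9 FPKM and Hist1h3g 21.6, 109.6 and 36.3 FPKM. Hist1h3b had 21.9, 73.5 and 31.7 FPKM, and Hist1h3d had 21.5, 63.2 and 28.6 FPKM. Hist1h3g had the highest ratio of lnc57Rik KO to WT of all 54 genes compared, 5.07 (4.36 to 5.90). The authors' table describes 4 of the genes as encoding histone H3.1 and 6 as encoding H3.2, replicative forms of H3 that differ at a single residue. The H3.1 genes summed to 193 FPKM in WT, 766 FPKM in lnc57Rik KO and 282 FPKM in lncGM1082 KO, and the H3.2 genes to 314, 977 and 450.0 FPKM. The fragment ratio of lnc57Rik KO to WT was 4.02 (3.80 to 4.25) for H3.1 and 3.06 (2.96 to 3.16) for H3.2, so the intervals did not overlap. In lncGM1082 KO the ratios to WT were 1.47 (1.37 to 1.56) and 1.41 (1.36 to 1.46), and these overlapped. Such intervals take no account of reads that fit both sets. Of the 50-base stretches of Hist1h3b, an H3.2 gene, 46.6% also occur in the H3.1 gene Hist1h3h. The H3 genes annotated over 100 bases past the stem-loop, Hist1h3d, Hist1h3e, Hist1h3f and Hist2h3c2, are all H3.2 genes. Hist2h3c2, from the Hist2 cluster, had only 1.91, 2.67 and 2.31 FPKM, with a ratio of lnc57Rik KO to WT of 1.40 (0.891 to 2.22).

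H4 genes held both the highest single FPKM and the smallest summed ratio among the core histones. Hist1h4k had 213, 460.0 and 240.4 FPKM, the highest mean of all 64 genes. FPKM divides by annotated length, which was 312 bases for Hist1h4k and 1560 for Hist1h1c. In WT Hist1h1c held more fragments, 4404 against 1230. Hist1h4h had 145, 309 and 164 FPKM, and Hist1h4f had 78.3, 239 and 122 FPKM. Hist1h4d had 114, 194 and 107 FPKM, and Hist1h4c had 58.6, 96.3 and 48.6 FPKM. In the last pair lncGM1082 KO was the lowest library, with ratios to WT of 0.940 (0.887 to 0.996) and 0.829 (0.751 to 0.915). Hist1h4a had 36.1, 83.2 and 37.0 FPKM, Hist1h4j 25.4, 87.6 and 35.1 FPKM and Hist2h4 22.5, 52.9 and 25.9 FPKM. Hist4h4, the 1 member on chromosome 6, had 3.59, 9.85 and 3.78 FPKM. Each of these was highest in lnc57Rik KO, with Hist1h4j at a ratio to WT of 3.44 (3.06 to 3.88) as the highest among H4 genes compared. Hist1h4i had 17.9, 21.9 and 20.7 FPKM, a ratio of 1.23 (1.03 to 1.46) and the lowest among H4 genes compared. Hist1h4b, the H4 gene below a mean of 1 FPKM, held at most 4 fragments in a library.

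**Figure D3:**
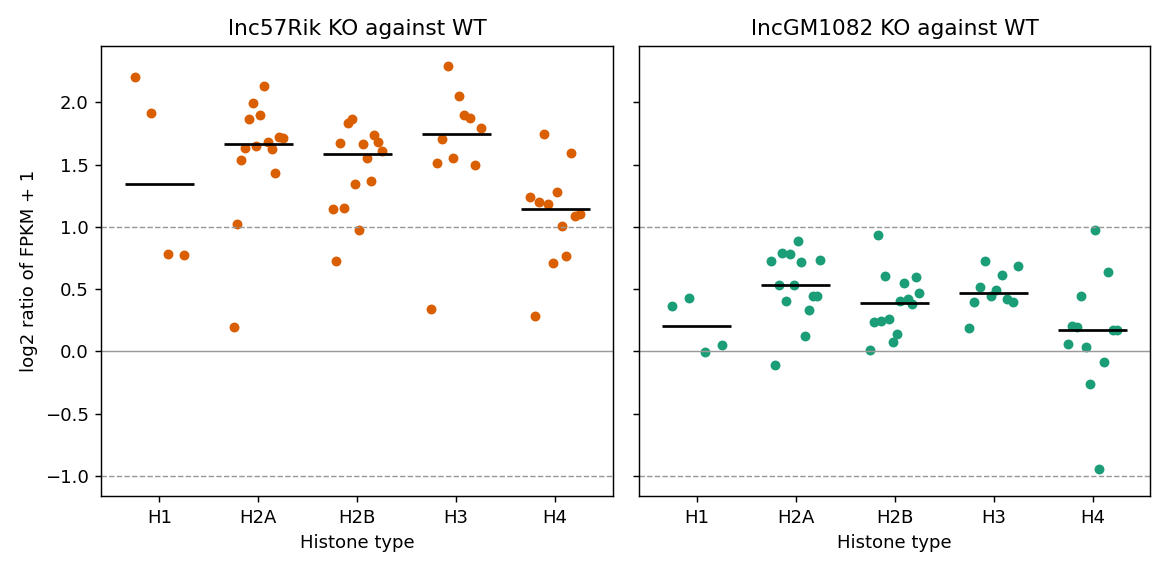
The log2 ratio of FPKM + 1 of each of the 54 histone genes (vertical axis) by type, in lnc57Rik KO and in lncGM1082 KO against WT, which is shared by both panels. Black lines are medians and dashed lines the rule of size at 1 and -1. All points lie above 0 on the left, with the H4 median at 1.14 below those of H2A at 1.67, H2B at 1.58 and H3 at 1.75. On the right no point passes a dashed line, and Hist1h4m at -0.94 and Hist1h4n at 0.98 lie at opposite ends.

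The second comparison asked the same of cells without lncGM1082. Against WT, 0 of the 54 genes were higher by the rule of size, where 0.88% of Ensembl rows were, and 0 were lower, where 1.05% were. The log2 ratio was above 0 in 49 and below 0 in 5, with a median of 0.41 beside 0.01 over all Ensembl rows. The counting interval of the ratio lay above 1 for 38 genes, below 1 for Hist1h4c, Hist1h4d and Hist1h4m, and held 1 for 13. By type the fragment ratio to WT was 1.49 (1.42 to 1.56) for H2A, 1.42 (1.38 to 1.47) for H3, 1.31 (1.27 to 1.35) for H2B, 1.08 (1.05 to 1.11) for H4 and 1.05 (1.02 to 1.08) for H1. Since WT is the control of both knockouts, a low or high WT value enters both comparisons. Set directly against each other, 35 of the 54 were higher in lnc57Rik KO than in lncGM1082 KO, where 3.36% of Ensembl rows were, and 0 were lower, where 1.17% were. The log2 ratio had a median of 1.11 and was above 0 in 53, with Hist2h2ab the exception.

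Copies limit what a single H4 value can show. Hist1h4m had 97.4 FPKM in WT, 197 FPKM in lnc57Rik KO and 50.2 FPKM in lncGM1082 KO. Hist1h4n had 61.3 FPKM in WT, 149.8 FPKM in lnc57Rik KO and 122 FPKM in lncGM1082 KO. In lncGM1082 KO one was thus low and the other high against WT, with ratios of 0.515 (0.453 to 0.585) and 1.99 (1.78 to 2.22). Of the 50-base stretches of Hist1h4m, 89.8% also occur in Hist1h4n, and 83.2% of those of Hist1h4n occur in Hist1h4m. Their sum was 159, 347 and 172 FPKM in WT, lnc57Rik KO and lncGM1082 KO, a fragment ratio to WT of 2.19 (2.05 to 2.35) and 1.11 (1.02 to 1.20) for the knockouts. The labels do not say how reads that fit both copies were assigned. Hist1h3h and Hist1h3i, which share 79.3% of such stretches, summed to 135, 503 and 194 FPKM. Hist1h2ao and Hist1h2ap summed to 8.77, 28.6 and 10.1 FPKM, and share 93.5% and 93.1% of theirs. Hist1h2bq and Hist1h2br summed to 2.43, 5.57 and 3.42 FPKM. Over all 64 genes, 26 have more than 50% of their 50-base stretches in another member, and 5 have none, Hist1h1a, Hist1h1b, Hist1h1t, Hist2h2be and Hist4h4.

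**Figure D4:**
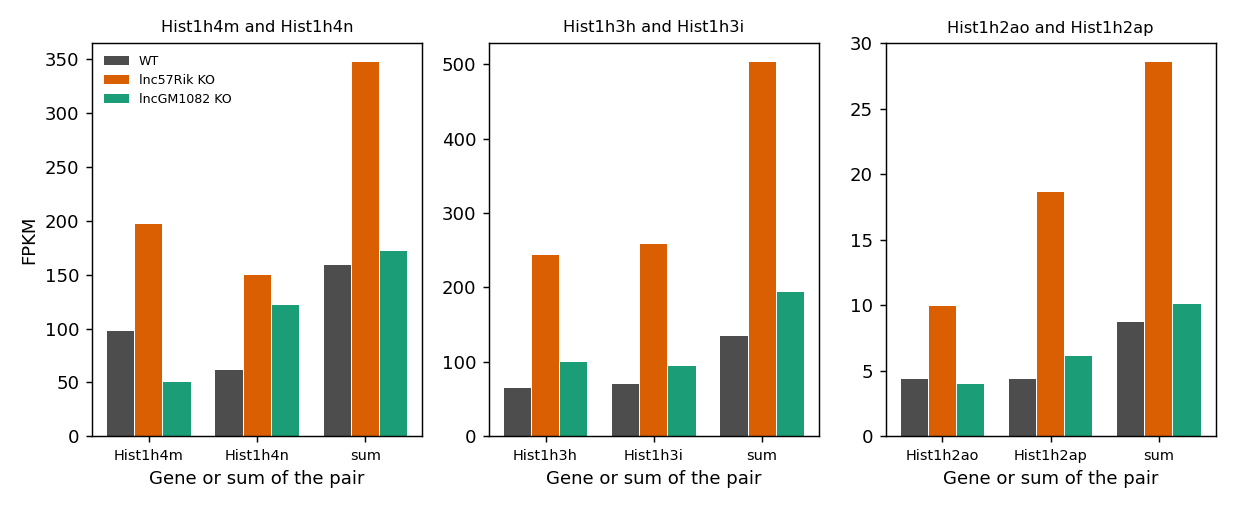
FPKM (vertical axis, from 0) of 3 pairs of near-identical copies and of their sums in the 3 libraries. For Hist1h4m and Hist1h4n the lncGM1082 KO bars move in opposite directions from WT, 50.2 and 122 FPKM against 97.4 and 61.3 FPKM, while their sum of 172 FPKM lies close to the WT sum of 159 FPKM.

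The genes were next read by cluster and by the end of their annotated transcript. The Hist1 cluster on chromosome 13 (GRCm38) holds 55 of the 64 genes in 2 stretches and 1 gene apart. The 23 genes from chr13:21715763-22043676 summed to 1047, 3083 and 1375 FPKM in WT, lnc57Rik KO and lncGM1082 KO. The 31 genes from chr13:23531050-23934851 summed to 1450.3, 3817 and 1806 FPKM. The fragment ratio of lnc57Rik KO to WT was 3.0 (2.93 to 3.08) in the former and 2.39 (2.36 to 2.43) in the latter stretch, which holds 5 of the 6 H1 genes. The 5 Hist2 genes on chromosome 3 had a fragment ratio of 2.40 (2.24 to 2.57). Hist4h4 had 2.74 (2.32 to 3.26), and the 3 Hist3 genes on chromosome 11 had 2.0 (1.26 to 3.22) from 30 fragments in WT. As sums, each of these sets was thus higher in lnc57Rik KO, but not every member was. In Hist2 the ratio was 2.74 for Hist2h2ac and 2.35 for Hist2h4, while the intervals of Hist2h2ab, Hist2h3c2 and Hist2h2be held 1. In Hist3 the fragments went from 12 in WT to 35 in lnc57Rik KO for Hist3h2bb-ps, from 2 to 10 for Hist3h2ba and from 16 to 12 for Hist3h2a. Hist1h2al, which lies apart, had 1 fragment in WT and 0 in both knockouts.

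Among genes compared, 19 have an annotated transcript that ends within 100 bases after the stem-loop, 17 have one that runs further, and 18 have none with a stem-loop match. The ratio of lnc57Rik KO to WT had a median of 3.23 and a range from 2.02 to 4.33 in the first class, and all 19 were higher by the rule of size. It had a median of 2.61 and a range from 1.23 to 4.52 in the second, with 11 of 17 higher, and a median of 3.27 and a range from 1.21 to 5.07 in the third, with 15 of 18 higher. The pooled ranges overlapped, and the second class holds 6 of the 12 H4 genes and both Hist1h1c and Hist1h1e. Within types the second class had the lowest median for H1 (1.72), H2B (2.61), H3 (2.89) and H4 (2.03). The third class had 4.30, 3.06, 3.77 and 2.23 for these types in that order. The first had 3.23 for H2B, 3.49 for H3 and 2.29 for H4. For H2A the second class was highest, 3.96 against 3.51 in the first and 3.27 in the third. Each such group holds 2 to 6 genes, and the difference was not tested. Among H2A and H2B genes compared, those with the octamer in the promoter had a median ratio of 3.23 (9 genes) and those without it 3.30 (17 genes). Promoters with TATAAA had a median of 3.05 over 25 genes and those without 3.24 over 24. Among H4 genes compared with a promoter, the median was 1.70 for the 3 with a CCAAT box, from 1.64 to 2.30, and 2.30 for the 8 without, from 1.23 to 3.44, so the ranges overlapped. It was 2.16 for the 9 H4 genes with GGTCCG in the bases searched and 2.22 for the 2 without. Those 2 include Hist1h4h, for which the search cannot decide because its bases end in GGTCC.

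Genes that act with the replicative histones were described from lists. Beside their counts stand the shares of all Ensembl rows compared, 3.79% higher and 1.4% lower in lnc57Rik KO against WT. For lncGM1082 KO against WT these shares were 0.88% and 1.05%. For the 18 genes of histone mRNA transcription and 3′ processing, 0 were higher or lower in lnc57Rik KO against WT by the rule of size, 14 of 18 had a log2 ratio above 0, and the median was 0.24. Slbp, which encodes the stem-loop binding protein, had 6.87 FPKM in WT, 8.54 FPKM in lnc57Rik KO and 7.20 FPKM in lncGM1082 KO. The log2 ratio of lnc57Rik KO to WT was 0.45 for Cpsf2, a subunit of the cleavage machinery, 0.36 for Casp8ap2, a protein of the histone locus body, and -0.51 for Lsm10, a U7 snRNP protein. Of 9 replication-independent variant genes compared, 0 passed the rule and 6 lay above 0, with a median of 0.04. H2afz, encoding H2A.Z, had 82.3 FPKM in WT, 109 FPKM in lnc57Rik KO and 82.8 FPKM in lncGM1082 KO. H2afy, encoding macroH2A1, had a log2 ratio of 0.47, and H2afj and H2afv had -0.09 and -0.06, with 0.24 and -0.27 in lncGM1082 KO against WT. That median of 0.04 stands beside 1.57 for the replicative genes, and the difference between the lists was not tested.

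Histone chaperones, which carry new histones to DNA, had a median of 0.37 over 24 genes, with 22 above 0. The 1 gene past the rule was Asf1b, an H3 and H4 chaperone of dividing cells, with 3.77 FPKM in WT, 8.90 FPKM in lnc57Rik KO and 4.00 FPKM in lncGM1082 KO and a log2 ratio of 1.05. Hat1, which acetylates new H4, had 0.82, Chaf1a, of the chromatin assembly factor CAF-1, had 0.73, and Rbbp7, a histone-binding subunit of several complexes, had 0.70. Genes of DNA replication in S phase had a median of 0.71, with 37 of 37 above 0 and 7 higher by the rule, and summed to 239 FPKM in WT, 432 FPKM in lnc57Rik KO and 238 FPKM in lncGM1082 KO. The helicase subunits Mcm6, Mcm7 and Mcm5 had log2 ratios of 1.23, 1.16 and 1.09, and Uhrf1, which maintains DNA methylation after replication, had 1.08. Genes of G2 and mitosis had a median of 0.69 with 20 of 20 above 0 and 0 past the rule, and summed to 155 FPKM in WT, 261 FPKM in lnc57Rik KO and 153 FPKM in lncGM1082 KO. Top2a, a topoisomerase, had 0.87, the motor proteins Kif11 and Cenpe had 0.85 and 0.82, and the kinase Plk1 had 0.81. The summed ratio of lnc57Rik KO to WT was 1.81 for S phase and 1.69 for G2 and mitosis, beside 2.76 for the histones. In lncGM1082 KO the medians against WT were -0.01 for histone mRNA processing, 0.01 for variants, 0.02 for chaperones, 0.00 for S phase and for G2 and mitosis, with 0 genes past the rule in any of the 5 lists, beside 0.41 for the histones.

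**Figure D5:**
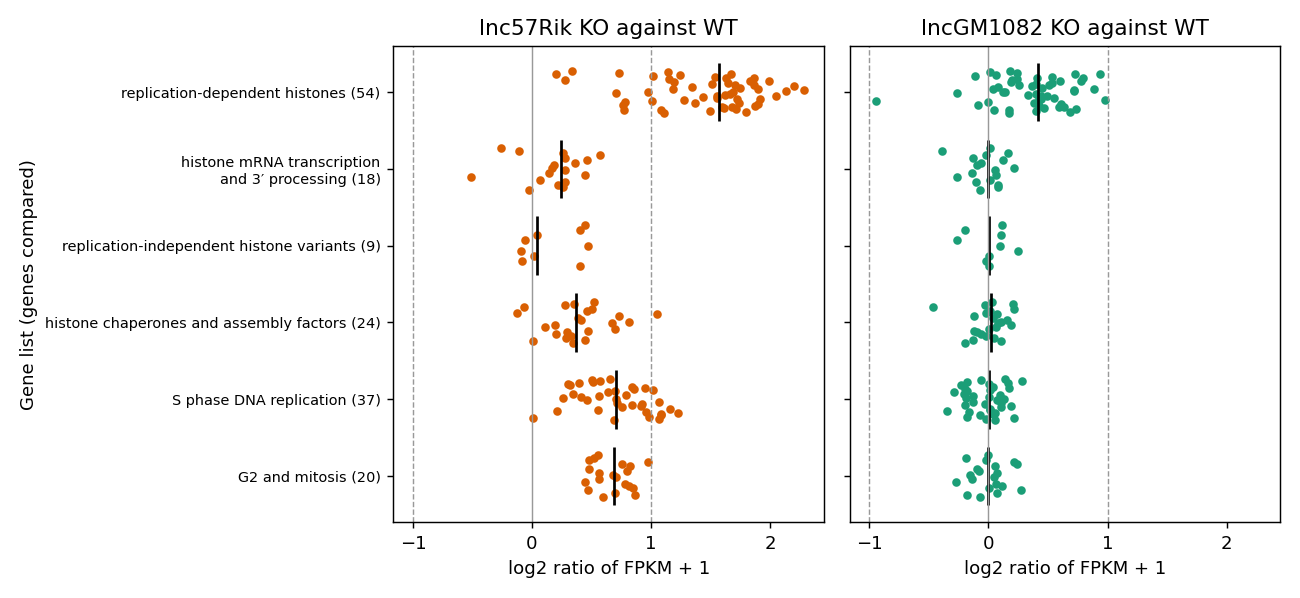
The log2 ratio of FPKM + 1 (horizontal axis) of the genes in each list, 1 point per gene, in lnc57Rik KO and lncGM1082 KO against WT. Black lines are medians and dashed lines the rule of size. On the left the histones have the highest median at 1.57, followed by S phase at 0.71 and G2 and mitosis at 0.69. On the right the histone median is 0.41 and the other medians lie between -0.01 and 0.02.

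Some cell type marker lists were higher in lnc57Rik KO, as the histones were, and others were not. Their part in the result was not tested. By the rule of size, 3.79% of all Ensembl rows compared were higher and 1.4% lower in lnc57Rik KO than in WT. For lncGM1082 KO against WT the shares were 0.88% and 1.05%. The 22 B lineage genes summed to 65.3 FPKM in WT, 475 FPKM in lnc57Rik KO and 71.4 FPKM in lncGM1082 KO, with 15 of 16 compared higher in lnc57Rik KO and 0 in lncGM1082 KO. Of these 22, 2 were at 0 in WT, 0 in lnc57Rik KO and 3 in lncGM1082 KO, and the B cell receptor component Cd79b had 2.19 FPKM in WT, 53.5 FPKM in lnc57Rik KO and 3.06 FPKM in lncGM1082 KO. Dendritic cell genes summed to 187 FPKM in WT, 562 FPKM in lnc57Rik KO and 271 FPKM in lncGM1082 KO, with 5 of 8 compared higher in lnc57Rik KO. Eosinophil, basophil and mast cell genes summed to 322 FPKM in WT, 553 FPKM in lnc57Rik KO and 371 FPKM in lncGM1082 KO, with 7 of 11 higher. Among mature neutrophil genes 5 of 11 were lower in lnc57Rik KO and 2 of 11 in lncGM1082 KO, including Ly6g, a surface marker of neutrophils, with 73.4 FPKM in WT, 21.1 FPKM in lnc57Rik KO and 33.9 FPKM in lncGM1082 KO. Primary granule genes, which mark neutrophil precursors, summed to 559 FPKM in WT, 582 FPKM in lnc57Rik KO and 622 FPKM in lncGM1082 KO. Monocyte and macrophage genes summed to 909 FPKM in WT, 792 FPKM in lnc57Rik KO and 759.5 FPKM in lncGM1082 KO, with 2 of 12 higher and 3 of 12 lower in lnc57Rik KO. Stem and progenitor genes, which share Flt3 with the dendritic list, summed to 24.3 FPKM in WT, 35.5 FPKM in lnc57Rik KO and 27 FPKM in lncGM1082 KO, erythroid genes to 4.43 FPKM in WT, 7.13 FPKM in lnc57Rik KO and 3.75 FPKM in lncGM1082 KO, and T and NK cell genes to 12.7 FPKM in WT, 18.9 FPKM in lnc57Rik KO and 16.6 FPKM in lncGM1082 KO. The lnc57Rik KO library thus stood highest in the B lineage, dendritic, eosinophil, basophil and mast cell, progenitor, erythroid and T and NK cell sums, as it did in histones. Of 5 stem and progenitor genes compared, 0 were higher or lower by the rule in lnc57Rik KO against WT. The log2 ratio was above 0 in 4 of them and below 0 in Kit. Gata2 had 8.54 FPKM in WT and 14.96 FPKM in lnc57Rik KO, while Kit had 5.93 and 4.92 FPKM. The erythroid and the T and NK cell sums rest on few genes. A mean of 1 FPKM was reached by 2 of 10 T and NK cell genes and 1 of 8 erythroid genes. Their log2 ratios of lnc57Rik KO to WT were 1.55 for Lck, 0.01 for Nkg7 and 0.74 for the erythroid gene Alas2. Nkg7 was highest in lncGM1082 KO. Whether these cell types were more frequent was not tested.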

How the data were processed

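Gene-level RNA sequencing values of 3 libraries, 1 per genotype, were deposited by the authors as FPKM in 1 table with 1 column for each. Bowtie 0.12.2 and mm9 were named, per the submitters' processing notes, while all 64 positions equal those of GENCODE M21 (GRCm38). The counting tool, RNA selection, strand setting and treatment of reads that fit several copies are not stated in the labels, which bears on transcripts without a poly(A) tail and on near-identical copies. Groups followed the genotype labels.

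Library totals were recovered as the value that made FPKM times exon length whole within 0.05 fragments in 98.9% to 99.2% of values under 20 fragments, and checked on simulated data. Ratios of single genes and of summed fragments got exact Clopper-Pearson intervals at 95%. Ratios of summed FPKM got an approximate 95% interval on the log scale from the same fragments, used only to judge the alternatives. Folds are log2 ratios of FPKM plus a pseudocount of 1, which understates low genes, taken where the mean reached 1 FPKM, with a rule of size of 1, and a 0 allows up to 3 fragments. Every compared member was named, and from each related list the 4 with the largest absolute fold in either knockout against WT at a mean of 5 FPKM or more. Members and lists were chosen with earlier results of these data known. Python 3.11.15, numpy 2.4.6, pandas 2.3.3, scipy 1.17.1 and matplotlib 3.10.9 were used.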

Additional observations from a re-analysis of the deposited data

Results flagged for a closer look

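A row of the NONCODE annotation of long noncoding RNA, on the plus strand at chr13:21812100-21820131, overlaps the 3′ end of Hist1h4m by 48 bases and enters none of the comparisons. It held 1.48 FPKM in WT, 3.63 FPKM in lnc57Rik KO and 0.166 FPKM in lncGM1082 KO. It was picked out as a row outside the histone rows that was above WT in lnc57Rik KO. Hist1h4m, on the same strand, had 97.4, 197 and 50.2 FPKM in the same order. Whether the NONCODE row holds a signal separate from that gene was not tested. Of 6 NONCODE rows that overlap a member, 2 lie on its strand, and the other such row, over Hist1h2be, held at most 0.150 FPKM.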

How the results depend on the processing

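The summed FPKM ratio of all 5 types, lnc57Rik KO to WT, was 2.62 under median ratio scaling (over 6331 rows), 2.54 from summed fragments and 2.81 without the highest member. For lncGM1082 KO to WT it was 1.22 from summed fragments, and for lnc57Rik KO to lncGM1082 KO it was 2.06 under median ratio scaling and 2.08 from summed fragments. No ratio changed direction under the alternatives run. The count of members higher in lnc57Rik KO than in WT ranged from 39 with a pseudocount of 5 to 45, and that against lncGM1082 KO from 28 with a pseudocount of 5 to 36 with 0.1. With a pseudocount of 0.1, 1 member, Hist1h2bp, was higher in lncGM1082 KO than in WT, and 0 were in the other settings. Single types moved beyond the approximate counting interval of their summed FPKM ratio in 13 of 50 values, most for H1. The H1 ratio of lnc57Rik KO to WT was 2.23, with such an interval from 2.17 to 2.29. It was 1.97 from summed fragments and 2.72 without Hist1h1c. No paired analysis was possible because there is 1 library per genotype. The 10 members below a mean of 1 FPKM held at most 63 fragments in a library, which limits what they can show.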
